A study of Mus musculus with 42 samples.

Results

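Metallothioneins and the zinc transporters that act beside them were followed in the cerebellum of fasted and refed mice. The 7 genes were taken by symbol from the deposited gene tables: the metallothioneins Mt1, Mt2 and Mt3, the zinc exporters Slc30a1 and Slc30a3, the zinc importer Slc39a14, and Mtf1, the transcription factor that senses zinc. They are 7 of 35275 listed genes, and all 7 passed the filter on low counts in both tables. RNA-seq covered male C57BL/6 mice (C57/BL6NTac in the design text), which carried no engineered allele and were 3 months old at the start. One set was fed ad libitum (AL), fasted for 16 h each day (IF16) or fasted for 24 h on every other day (EOD) over 3 months, and was collected at 6 months of age. In the other set, 2 further months of ad libitum feeding followed the same regimens, and collection was at 8 months (AL-R, IF16-R and EOD-R).

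There were 5 libraries in each of 6 groups, and the labels number them without saying whether each came from a separate animal, so the p-values measure the spread between these samples. The hour of collection relative to the last meal is not given in the sources used here. Total counts ran from 26799825 to 36167435 per library. The labelled tissue was checked with marker genes: summed over their lists, granule cell markers were at 2856 to 3982 CPM (counts scaled to library size, as described below), Purkinje cell markers at 4160 to 6566 CPM, and forebrain markers at 5.09 to 8.98 CPM. Choroid plexus markers ranged from 155 to 5133 CPM between libraries. Libraries also differed in their length gradient, the slope of log2 CPM on log2 gene length, which is lower where short genes take more of the counts. It ran from 0.793 in AL replicate 4 to 1.09 in EOD replicate 4 at the end of the regimens, and from 0.982 to 1.05 after refeeding, where all IF16-R libraries (1.01 to 1.05) lay above all AL-R libraries (0.983 to 1.005).

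Metallothioneins are small proteins rich in cysteine that bind zinc and copper. Mt1 and Mt2 are made in many tissues, in brain mainly by astrocytes, and their transcription is induced by zinc, by glucocorticoids and by oxidative stress. Mt3 is the brain's own metallothionein and is far less inducible by metals. The protein of Slc30a1 (ZnT1) moves zinc out of the cell, that of Slc30a3 (ZnT3) loads zinc into synaptic vesicles, and that of Slc39a14 (ZIP14) brings zinc, iron and manganese into the cytoplasm. When cytoplasmic zinc rises, the protein of Mtf1 binds metal response elements in the promoters of Mt1, Mt2 and Slc30a1.

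The 3 metallothionein genes lie side by side on the plus strand of chromosome 8 in the deposited annotation: Mt3 (ENSMUSG00000031760, 94152607-94154148), Mt2 (ENSMUSG00000031762, 94172618-94173567) and Mt1 (ENSMUSG00000031765, 94179089-94180325). There are 18469 bases between Mt3 and Mt2 and 5521 between Mt2 and Mt1. Their listed lengths are 538, 556 and 540 bases, the 3 shortest of the members. The other members are Slc30a1 (ENSMUSG00000037434, chromosome 1, 191906767-191913247, plus strand, 5244 bases), Slc30a3 (ENSMUSG00000029151, chromosome 5, 31086106-31108237, minus strand, 2089 bases), Slc39a14 (ENSMUSG00000022094, chromosome 14, 70303469-70351425, minus strand, 5117 bases) and Mtf1 (ENSMUSG00000028890, chromosome 4, 124802104-124849800, plus strand, 7631 bases). All 7 are listed as protein coding.

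The promoters of the metallothioneins are printed because Mt1 and Mt2 varied together across libraries at both times, as described below. Each line holds the 250 bases before the RefSeq start in GRCm38.p6, on the plus strand and 5′ to 3′, at chr8:94178839-94179088 for Mt1, chr8:94172368-94172617 for Mt2 and chr8:94152357-94152606 for Mt3. Capitals mark the core of the metal response element, TGCACNC or TGCGCNC, found on either strand.
Mt1: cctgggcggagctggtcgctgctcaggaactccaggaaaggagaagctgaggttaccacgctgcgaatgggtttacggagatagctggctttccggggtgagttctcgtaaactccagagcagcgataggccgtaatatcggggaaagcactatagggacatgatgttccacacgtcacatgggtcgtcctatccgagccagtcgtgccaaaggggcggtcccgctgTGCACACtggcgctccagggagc
Mt2: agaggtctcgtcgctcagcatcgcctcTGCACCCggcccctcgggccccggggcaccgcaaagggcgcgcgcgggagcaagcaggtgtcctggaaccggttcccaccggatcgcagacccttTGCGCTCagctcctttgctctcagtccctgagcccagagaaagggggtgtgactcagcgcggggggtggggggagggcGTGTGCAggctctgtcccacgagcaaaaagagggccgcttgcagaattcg
Mt3: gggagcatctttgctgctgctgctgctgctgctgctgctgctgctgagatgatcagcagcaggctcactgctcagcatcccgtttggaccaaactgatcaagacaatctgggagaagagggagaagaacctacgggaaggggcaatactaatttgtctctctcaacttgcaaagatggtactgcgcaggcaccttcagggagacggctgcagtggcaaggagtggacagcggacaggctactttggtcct
Mt2 held 3 matches, 50 to 223 bases before the start, Mt1 held 1, at 23 bases before it, and Mt3 held 0. Of 32851 promoter windows of this length in the RefSeq table, 21.4% held at least 1 match and 1.26% held 3 or more.

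These counts depend on the window. Within bases 3 to 27 after that start (chr8:94179091-94179115) Mt1 held 2 more, which are printed because the 250-base window leaves them out.
Mt1 after the start: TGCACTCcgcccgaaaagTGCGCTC
Over the window of 300 bases, 50 of them after the start, Mt2 held 4 matches, Mt1 held 3, Slc30a1 held 2 and Mt3 held 1, where 25.7% of all windows held at least 1, 7.11% at least 2, 1.97% at least 3 and 0.517% at least 4. In the 250 bases before the start, Slc30a1 held 1 match, Slc30a3 held 1 before the first of its 2 listed starts and 0 before the other, and Mtf1 held 0. RefSeq promoters were matched for 6 of the 7 members. The palindromic glucocorticoid response element was found in 0 windows of these members and in 3 of the 32851 windows, a rare match in any window. These matches are letters in a window and were not tested as binding sites.

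Per transcript length, the metallothioneins stood far above the other members. Levels between genes are given as deposited FPKM, counts divided by gene length and by all counted reads. In AL, Mt3 was at 687 ± 163, Mt1 at 517 ± 136 and Mt2 at 234 ± 78.2 FPKM (SD, n = 5). Slc39a14 followed at 6.10 ± 0.996, Slc30a1 at 4.83 ± 0.511, Mtf1 at 3.94 ± 0.782 and Slc30a3 at 1.99 ± 0.764 FPKM. The lowest AL library of Mt1 (338 FPKM) lay just above the highest of Mt2 (335 FPKM), whereas the ranges of Mt3 and Mt1 overlapped, as did those of neighbours among the other 4 members.

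The order within the metallothioneins was not the same in every group. Mt1 was at 864 ± 152 FPKM in IF16 and 843 ± 153 in EOD, above the means of Mt3 in the same groups (666 ± 136 and 641 ± 102), with overlapping ranges in both. After refeeding, every library of Mt3 lay above every library of Mt1, and every library of Mt1 above every library of Mt2, in all 3 groups. In AL-R these means were 631 ± 32.4, 445 ± 63.4 and 210.2 ± 39.3 FPKM. FPKM are scaled to each library's total only, and the refed libraries come from a separate table. Mt4, a metallothionein of stratified epithelia, had 0 counts in all 30 libraries.

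**Figure D1:**
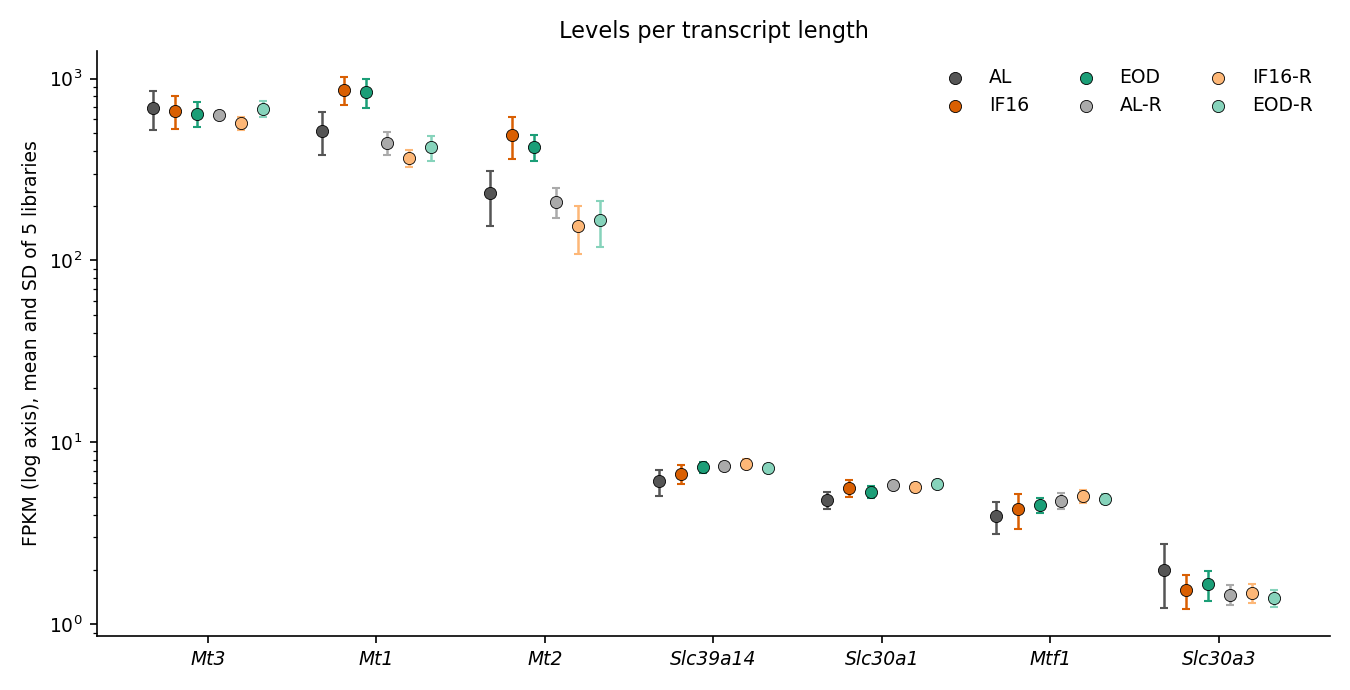
Mean deposited FPKM of each gene (log axis) in the 6 groups, with bars for the SD of 5 libraries. Mt1, Mt2 and Mt3 lie between 154 and 864 FPKM in every group, and the other 4 genes between 1.40 and 7.64 FPKM.

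Differences between groups were tested on counts with edgeR's quasi-likelihood test over all genes, and a gene was called at a Benjamini-Hochberg adjusted p under 0.05. CPM are scaled by TMM (trimmed mean of M-values) within each table, so they are not compared between the end of the regimens and refeeding except by the interaction, which tests the regimen's difference from its controls after refeeding minus that at the end. IF16 and EOD share the AL libraries, and IF16-R and EOD-R share the AL-R libraries, so the comparisons within a table are not independent. DESeq2's Wald test on the same counts served as an alternative.

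**Figure D2:**
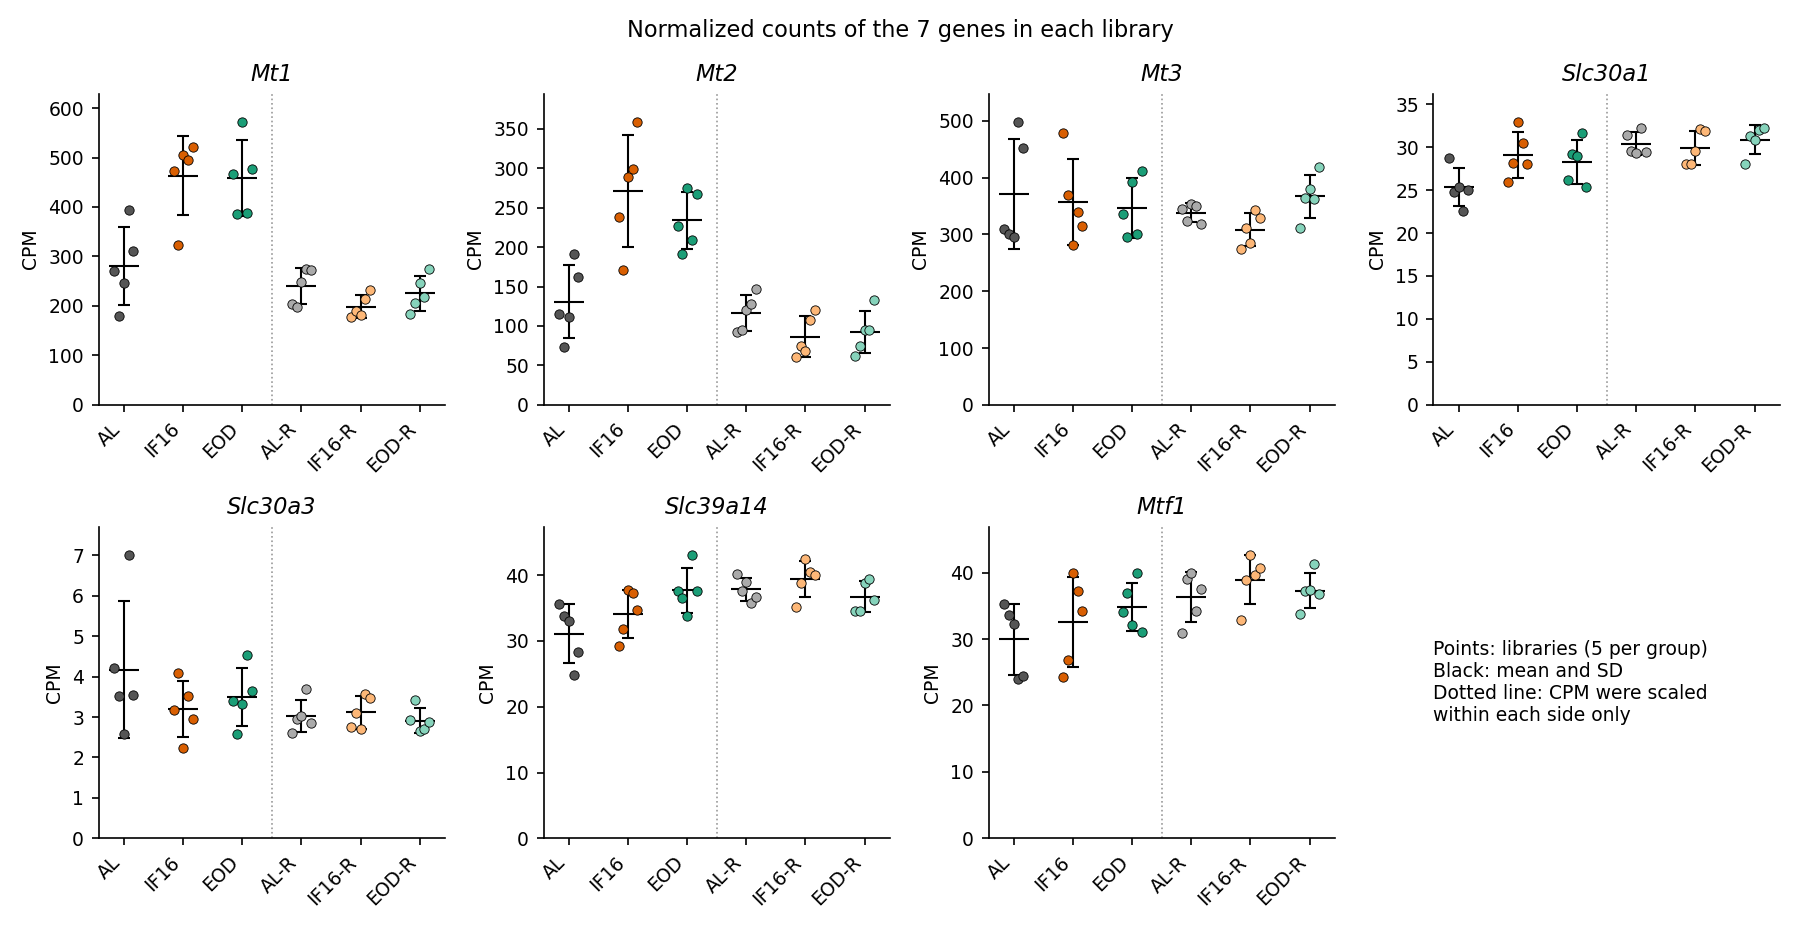
Normalized counts (CPM, TMM-scaled within each side of the dotted line) of the 7 genes in each of 30 libraries, with the mean and SD of 5 libraries per group. For Mt1, the IF16 libraries lie between 324 and 522 CPM and the EOD libraries between 386 and 572, against 180.4 to 395 in AL. For Mt2, the EOD libraries lie between 191.9 and 276 CPM, and AL reaches 191.8.

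Mt1 and Mt2 had the largest differences of the 7 genes at the end of both regimens, with fitted levels 1.65 and 2.08 times those of AL in IF16, and 1.63 and 1.80 times in EOD. Neither was called by edgeR at the end of the regimens, and DESeq2 called both in both comparisons. In IF16 vs AL, edgeR called 0 of the 7 members, where 0.0483% of the 16577 genes tested were called. At an unadjusted p under 0.05 it had 3 members, all higher in IF16 (Mt1, Mt2 and Slc30a1), against 9.92% of all genes in either direction. In EOD vs AL it called 0 of 7, against 0.0664% of all genes, and 3 members had an unadjusted p under 0.05, all higher in EOD (Mt1, Mt2 and Slc39a14), against 14.4%. DESeq2 called 2 of 7 in each, Mt1 and Mt2, where it called 0.384% and 0.511% of the genes it tested. The median log2 difference of the 7 members was 0.13 in IF16 vs AL and 0.22 in EOD vs AL, beside -0.0062 and -0.02 over all genes tested.

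Mt1 in AL was at 271, 180.4, 246, 395 and 310.4 CPM in replicates 1 to 5. In IF16 it was at 473, 324, 504, 494 and 522 CPM, and in EOD at 466, 386, 572, 387 and 478 CPM. Of the IF16 libraries 4 lay above every AL library and IF16 replicate 2 lay below AL replicate 4, while 3 EOD libraries lay above every AL library, so both ranges overlapped that of AL. The log2 difference of Mt1 was 0.72 in IF16 vs AL (SE 0.177, edgeR adjusted p = 0.200) and 0.71 in EOD vs AL (SE 0.177, edgeR adjusted p = 0.203). DESeq2's adjusted p was 0.0147 and 0.0192. In bulk tissue, a higher share of the cells that make a transcript and more transcript per cell cannot be told apart.

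Mt2 in AL was at 115, 73.4, 111, 192 and 162 CPM in replicates 1 to 5. In IF16 it was at 238, 171, 289, 299.7 and 359 CPM, and in EOD at 227, 192, 276, 209 and 267 CPM. The EOD range (191.9 to 276 CPM) began just above the top of AL (191.8 CPM), so the ranges nearly met. Of the IF16 libraries, 4 of 5 lay above every AL library. The share of all genes whose groups part in this way was not counted. The log2 difference of Mt2 was 1.05 in IF16 vs AL (SE 0.223, edgeR adjusted p = 0.116) and 0.84 in EOD vs AL (SE 0.223, edgeR adjusted p = 0.208). DESeq2's adjusted p was 0.00133 and 0.0253.

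Marker lists and the length gradient were set beside these values. With the mean of the choroid plexus markers as a covariate, the log2 difference in IF16 vs AL was 0.73 for Mt1 and 1.04 for Mt2, and with the astrocyte and Bergmann glia markers it was 0.784 and 1.099, close to the values without a covariate. With the length gradient as a covariate they were 0.83 and 1.18 in IF16 vs AL (edgeR adjusted p = 0.0365 and 0.0286) and 0.87 and 1.02 in EOD vs AL (edgeR adjusted p = 0.104 and 0.190). That fit called 2 of 7 members in IF16 vs AL and 0.374% of all genes (62, against 8 without the covariate). Astrocyte and Bergmann glia markers summed to 4818 to 5720 CPM in AL, 5036 to 5781 in IF16 and 5150 to 5806 in EOD, and 0 of the 10 were called in either comparison (0 and 1 with an unadjusted p under 0.05). Endothelial markers summed to 306 to 329 CPM in AL, 248 to 309 in IF16 and 235 to 318 in EOD. Of the 7, 4 and 2 were lower at an unadjusted p under 0.05, against 9.92% and 14.4% of all genes in either direction, and edgeR called 0. The part of the endothelium in the Mt1 and Mt2 values was not tested.

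The regimens themselves were not told apart by these genes. In EOD vs IF16, edgeR called 0 of 7 members and 0 had an unadjusted p under 0.05, where 0% and 3.62% of all genes did so, and DESeq2 called 0 of 7, against 0.004% of its genes. The log2 difference in EOD vs IF16 was -0.02 for Mt1 (SE 0.176) and -0.21 for Mt2 (SE 0.221), whose mean was 234 CPM in EOD and 271 in IF16. These errors leave room for differences of either sign.

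**Figure D3:**
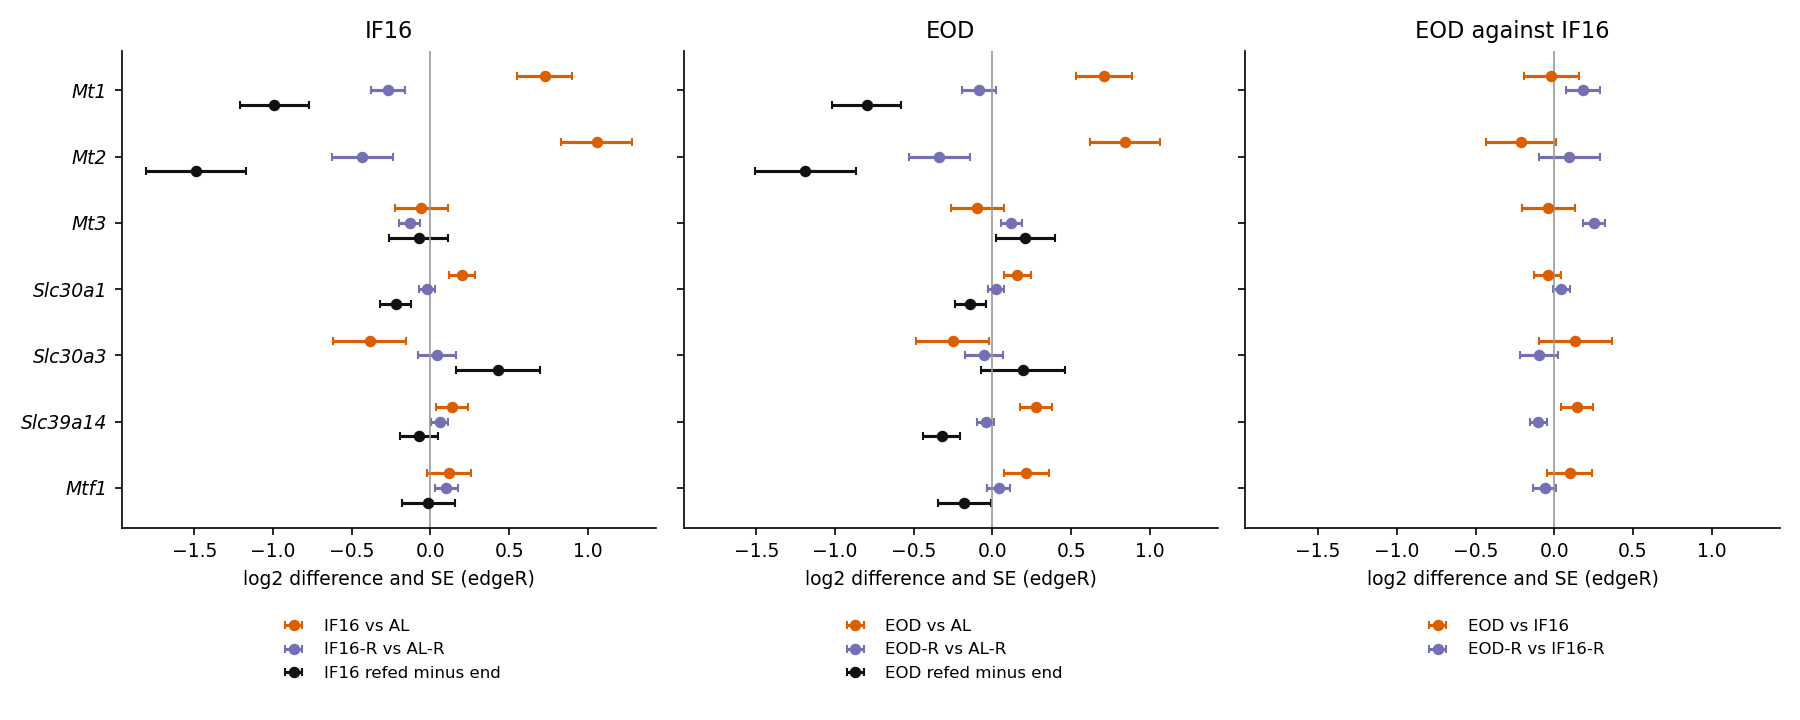
Log2 differences of the 7 genes from edgeR with their standard errors, for IF16 and EOD against their controls at the end of the regimens and after refeeding, for refed minus end (the interaction), and for EOD against IF16. Mt1 and Mt2 lie at 0.71 to 1.05 at the end of both regimens and at -0.43 to -0.09 against the refed controls. No other gene lies beyond 0.43 in either direction.

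After 2 months of refeeding the means of Mt1 and Mt2 lay below those of the refed controls in both regimens, by amounts that neither edgeR without the replicate number nor DESeq2 called. In IF16-R vs AL-R edgeR called 0 of 7 members, against 0.17% of the 16444 genes tested, and 2 members, Mt1 and Mt2, were lower at an unadjusted p under 0.05, against 9.58% of all genes. In EOD-R vs AL-R it called 0 of 7, against 0.0426%, and 0 had an unadjusted p under 0.05, against 8.5%. DESeq2 called 0 of 7 in both, where it called 0.426% and 0.302% of its genes.

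Mt1 was at 204, 198, 248, 275 and 272 CPM in AL-R, at 177, 191, 181, 214 and 232 CPM in IF16-R, and at 183, 205, 246, 219 and 275 CPM in EOD-R. The 3 ranges overlapped, with 3 of 5 IF16-R libraries below every AL-R library. The log2 difference of Mt1 was -0.27 in IF16-R vs AL-R (SE 0.108, edgeR adjusted p = 0.441) and -0.09 in EOD-R vs AL-R (SE 0.108, edgeR adjusted p = 0.889). The length gradient separates IF16-R from AL-R. With it as a covariate, the first difference was -0.14 (edgeR adjusted p = 0.999), so group and gradient cannot be told apart there. In the same fit Mt2 was at -0.38, beside -0.43 without the covariate.

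Mt2 was at 92.5, 94.9, 120.2, 128 and 147 CPM in AL-R, at 60.8, 74.2, 68.8, 108 and 119.9 CPM in IF16-R, and at 62.4, 75.1, 95.3, 95.4 and 133 CPM in EOD-R. Here too the ranges overlapped, with 3 IF16-R and 2 EOD-R libraries below every AL-R library. The log2 difference of Mt2 was -0.43 in IF16-R vs AL-R (SE 0.194, edgeR adjusted p = 0.489) and -0.34 in EOD-R vs AL-R (SE 0.194, edgeR adjusted p = 0.660). Of the astrocyte and Bergmann glia markers, edgeR called 2 of 10 higher in IF16-R vs AL-R, Aqp4 and Gja1, and Gja1 in EOD-R vs AL-R. Over all genes it called 28 and 7 in these comparisons, and 0 in both with the length gradient as a covariate. The summed astrocyte and Bergmann glia list was at 4749 to 5414 CPM in AL-R libraries, 5076 to 5455 under IF16-R and 5199 to 5570 under EOD-R. Red blood cell markers were lower in the same comparisons, with a median log2 difference of -0.88 in IF16-R vs AL-R and -1.61 in EOD-R vs AL-R. An unadjusted p under 0.05 was reached by 2 of 5 and 5 of 5, against 9.58% and 8.5% of all genes. In neither comparison did edgeR call any of these markers. They summed to 8.68 to 114 CPM in AL-R libraries, 13.9 to 56.2 under IF16-R and 14.9 to 25.7 under EOD-R, and their part in the Mt1 and Mt2 values was not tested. The part of the astrocyte list in the lower Mt1 and Mt2 means was not tested beyond a covariate, with which Mt2 was at -0.50 and -0.40 (edgeR adjusted p = 0.9997 and 0.999).

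The interaction tested whether the difference from the controls was the same at both times. For IF16, Mt1 had a log2 value of -0.99 (SE 0.22, edgeR adjusted p = 0.106) and Mt2 one of -1.49 (SE 0.319, edgeR adjusted p = 0.0820), the largest in size of the 7 genes. For EOD, Mt1 was at -0.80 (SE 0.219, edgeR adjusted p = 0.294) and Mt2 at -1.19 (SE 0.319, edgeR adjusted p = 0.288). In the IF16 interaction edgeR called 0 of 7, against 0.0474% of the 16877 genes tested, and 3 members were lower at an unadjusted p under 0.05 (Mt1, Mt2 and Slc30a1), against 7.21%. In the EOD interaction it called 0 of 7, against 0.0119%, and 3 were lower at an unadjusted p under 0.05 (Mt1, Mt2 and Slc39a14), against 10.3%. DESeq2 called Mt1 (adjusted p = 0.0120) and Mt2 (adjusted p = 0.0217) in the IF16 interaction, where it called 0.115% of its genes, and 0 of 7 in the EOD interaction, against 0.0575%.

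Whether the IF16 interaction was called depended on the model and on single libraries. Without AL replicate 4 the edgeR adjusted p was 0.0138 for Mt1 and 0.0217 for Mt2, without IF16 replicate 2 it was 0.0233 for both, and without IF16-R replicate 5 it was 0.0428 for Mt2. These fits called 0.0706%, 0.094% and 0.047% of all genes. With 1 library left out at a time (20 fits), the log2 value ran from -1.14 to -0.88 for Mt1 and from -1.66 to -1.35 for Mt2. AL replicate 4 held the highest Mt1, Mt2 and Mt3 values of its group and the lowest length gradient of all libraries. With the gradient as a covariate, Mt1 was at -1.03 (edgeR adjusted p = 0.0192) and Mt2 at -1.54 (edgeR adjusted p = 0.0222), in a fit that called 0.213% of all genes (36, against 8 without the covariate).

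Mt3 had small differences at the end of the regimens, and whether they differ from those of Mt1 and Mt2 was not tested. It was at 309, 300.3, 296, 498 and 452 CPM in AL, at 479, 369, 282, 339 and 314 CPM in IF16, and at 336, 296, 392, 301 and 412 CPM in EOD. The highest values belonged to AL replicates 4 and 5 and IF16 replicate 1, which also had the 3 lowest length gradients, 0.793, 0.844 and 0.836. The log2 difference of Mt3 was -0.06 in IF16 vs AL (SE 0.167, edgeR adjusted p = 0.907) and -0.10 in EOD vs AL (SE 0.167, edgeR adjusted p = 0.761). With the gradient as a covariate the signs turned, to 0.09 and 0.22 (edgeR adjusted p = 0.530 and 0.393).

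After refeeding, Mt3 was at 345, 323, 354, 351 and 318 CPM in AL-R, at 274, 312, 286, 343 and 329 CPM in IF16-R, and at 312, 365, 380.0, 362 and 418 CPM in EOD-R. All EOD-R libraries but replicate 1 lay above every IF16-R library. In EOD-R vs IF16-R the log2 difference of Mt3 was 0.25 (SE 0.0678, edgeR adjusted p = 0.231), and DESeq2's adjusted p was 0.0316. It was the 1 member with an unadjusted p under 0.05 in that comparison, against 9.75% of all genes, edgeR called 0 of 7, against 0.0182%, and DESeq2 called 1 of 7, against 0.493%. Without EOD-R replicate 1 edgeR called Mt3 too (adjusted p = 0.0326), along with 0.429% of all genes (71, against 3 with all libraries), and with the length gradient as a covariate its log2 difference was 0.15 (edgeR adjusted p = 0.9999). Against AL-R, Mt3 was at -0.13 in IF16-R (SE 0.0678) and 0.12 in EOD-R (SE 0.0677).

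Slc30a1, the exporter at the plasma membrane and a textbook target of Mtf1, was measured at 22.6 to 28.7 CPM in AL, 26.0 to 32.9 in IF16 and 25.3 to 31.6 in EOD. The ranges overlapped, with 2 IF16 and 3 EOD libraries above every AL library. Its log2 difference was 0.20 in IF16 vs AL (SE 0.0836, edgeR adjusted p = 0.451) and 0.16 in EOD vs AL (SE 0.0837, edgeR adjusted p = 0.368). With the length gradient as a covariate these values were 0.15 and 0.052. After refeeding its means were 30.4 ± 1.32 CPM for AL-R, 29.9 ± 1.99 for IF16-R mice and 30.9 ± 1.69 for EOD-R mice (SD, n = 5), and the log2 differences from AL-R were -0.02 (SE 0.0526) and 0.02 (SE 0.0526). The interaction was -0.22 for IF16 (SE 0.0984, edgeR adjusted p = 0.668) and -0.14 for EOD (SE 0.0985, edgeR adjusted p = 0.566).

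Slc30a3, which fills synaptic vesicles with zinc and is best known from forebrain neurons, was the lowest member, with 76 to 231 counts per library. Its mean was 4.17 ± 1.69 CPM in AL, where replicate 4 stood at 7.00 CPM and the other 4 between 2.57 and 4.22, 3.19 ± 0.689 in IF16 and 3.50 ± 0.710 in EOD (SD, n = 5). All ranges overlapped. The log2 difference was -0.39 in IF16 vs AL (SE 0.231, edgeR adjusted p = 0.570) and -0.25 in EOD vs AL (SE 0.23, edgeR adjusted p = 0.551), and without AL replicate 4 the log2 difference of Slc30a3 was -0.12 in IF16 vs AL and 0.01 in EOD vs AL. After refeeding the group means lay between 2.91 and 3.12 CPM.

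Slc39a14, an importer that acute-phase signals raise in liver, was at 24.8 to 35.6 CPM in AL, 29.2 to 37.7 in IF16 and 33.8 to 43.0 in EOD. Of the EOD libraries 4 lay above every AL library. Its log2 difference was 0.28 in EOD vs AL (SE 0.102, edgeR adjusted p = 0.315) and 0.13 in IF16 vs AL (SE 0.102, edgeR adjusted p = 0.645). With the length gradient as a covariate the first value was 0.12. After refeeding its means were 37.9 ± 1.77 CPM for AL-R, 39.4 ± 2.71 for IF16-R mice and 36.7 ± 2.33 for EOD-R mice (SD, n = 5), and the EOD interaction was -0.32 (SE 0.119, edgeR adjusted p = 0.449).

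Mtf1, the zinc sensor, was at 24.0 to 35.3 CPM in AL, 24.2 to 40.0 in IF16 and 31.0 to 39.9 in EOD. Its log2 difference was 0.12 in IF16 vs AL (SE 0.142, edgeR adjusted p = 0.761) and 0.22 in EOD vs AL (SE 0.142, edgeR adjusted p = 0.425). Both had values near 0 with the length gradient as a covariate, -0.0042 and -0.02. Mtf1 is the longest member, and its lowest libraries were AL replicates 4 and 5 and IF16 replicate 1, the same that held the highest Mt3. After refeeding its means were 36.3 ± 3.74 CPM for AL-R, 38.9 ± 3.66 for IF16-R mice and 37.3 ± 2.66 for EOD-R mice (SD, n = 5).

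Within groups, Mt1 and Mt2 varied together from library to library. On deviations of log2 CPM from the group means, their Pearson r was 0.951 at the end of the regimens (permutation p = 1e-05, adjusted 0.00042; 15 libraries) and 0.934 after refeeding (permutation p = 2e-05, adjusted 0.00042). Spearman's rho was 0.957 and 0.936, with the same permutation p-values as r at each time. The permutations were two-sided and within groups, 1e-05 is the smallest p they can give, and adjustment was over 42 member pairs. Without the 2 libraries farthest from the median of Mt1, r was 0.892 and 0.906. The count of Mt2 per count of Mt1 had a mean of 0.458 ± 0.0465 in AL libraries, 0.579 ± 0.0725 under IF16 and 0.513 ± 0.0349 under EOD, and after refeeding of 0.485 ± 0.0332 for AL-R, 0.427 ± 0.0794 for IF16-R and 0.403 ± 0.0572 for EOD-R (SD, n = 5), given as a description. In all 6 groups this ratio was highest in replicate 5. From replicate 1 to replicate 5 it went from 0.503 to 0.688 in IF16 and from 0.340 to 0.483 in EOD-R. The permutations treat the libraries of a group as exchangeable, and an order shared by replicate number was not tested.

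**Figure D4:**
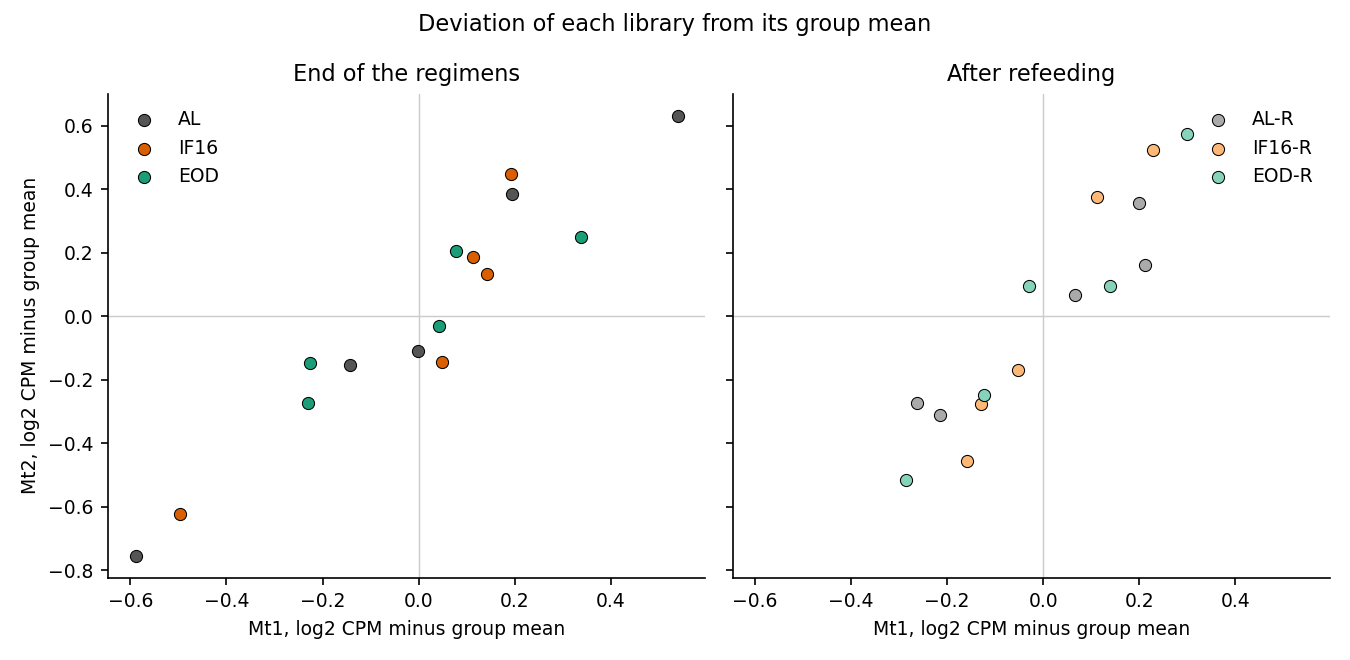
Deviation of each library from its group mean in log2 CPM, Mt2 against Mt1, at the end of the regimens and after refeeding, with 15 libraries in each panel. The points follow 1 rising line in both panels (Pearson r 0.951 and 0.934), from AL replicate 2 at the lower left to AL replicate 4 at the upper right in the first.

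At the end of the regimens, members other than Mt1 and Mt2 varied with each other and with the length gradient. Of 21 pairs, 7 had an adjusted p under 0.05, 4 with a positive and 3 with a negative r. How many pairs of other genes pass this cut was not counted. The adjusted permutation p of rho was at most 0.036 for these 7 pairs. Mt3 ran against Mtf1 (r = -0.920, permutation p = 0.00011, adjusted 0.0012; rho = -0.875), Slc39a14 (r = -0.857, permutation p = 0.0011, adjusted 0.0074; rho = -0.800) and Slc30a1 (r = -0.696, permutation p = 0.0079, adjusted 0.03; rho = -0.693). Mtf1 and Slc39a14 ran together (r = 0.906, permutation p = 8e-05, adjusted 0.0011; rho = 0.936), and Slc30a1 ran with Mtf1 (r = 0.781, permutation p = 0.00072, adjusted 0.006; rho = 0.811) and with Slc39a14 (r = 0.713, permutation p = 0.0057, adjusted 0.03; rho = 0.714). Without the 2 libraries farthest from the median, r was -0.875, -0.742 and -0.529 for the 3 negative pairs and 0.879, 0.692 and 0.615 for these 3 positive ones.

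The gradient itself had r = -0.935 with Mt3 (permutation p = 8e-05, adjusted 0.00051; rho = -0.886), 0.947 with Slc39a14 (permutation p = 0.00011, adjusted 0.00051; rho = 0.925), 0.940 with Mtf1 (permutation p = 1e-05, adjusted 0.00014; rho = 0.925) and 0.792 with Slc30a1 (permutation p = 0.0011, adjusted 0.0039; rho = 0.739) over the same 15 libraries, with an adjusted permutation p of rho of at most 0.014. With Mt1 it had r = -0.437 (permutation p = 0.17, adjusted 0.39; rho = -0.457) and with Mt2 r = -0.341 (permutation p = 0.3, adjusted 0.44; rho = -0.400), adjusted over 14 relations. Leaving out the pair of libraries with the most distant gradients gave r of -0.880 with Mt3, 0.911 with Slc39a14, 0.910 with Mtf1 and 0.684 with Slc30a1. After refeeding, where the gradient varied less, none of its 7 relations with members had an adjusted p under 0.05 (smallest permutation p of r = 0.1, with Mtf1).

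**Figure D5:**
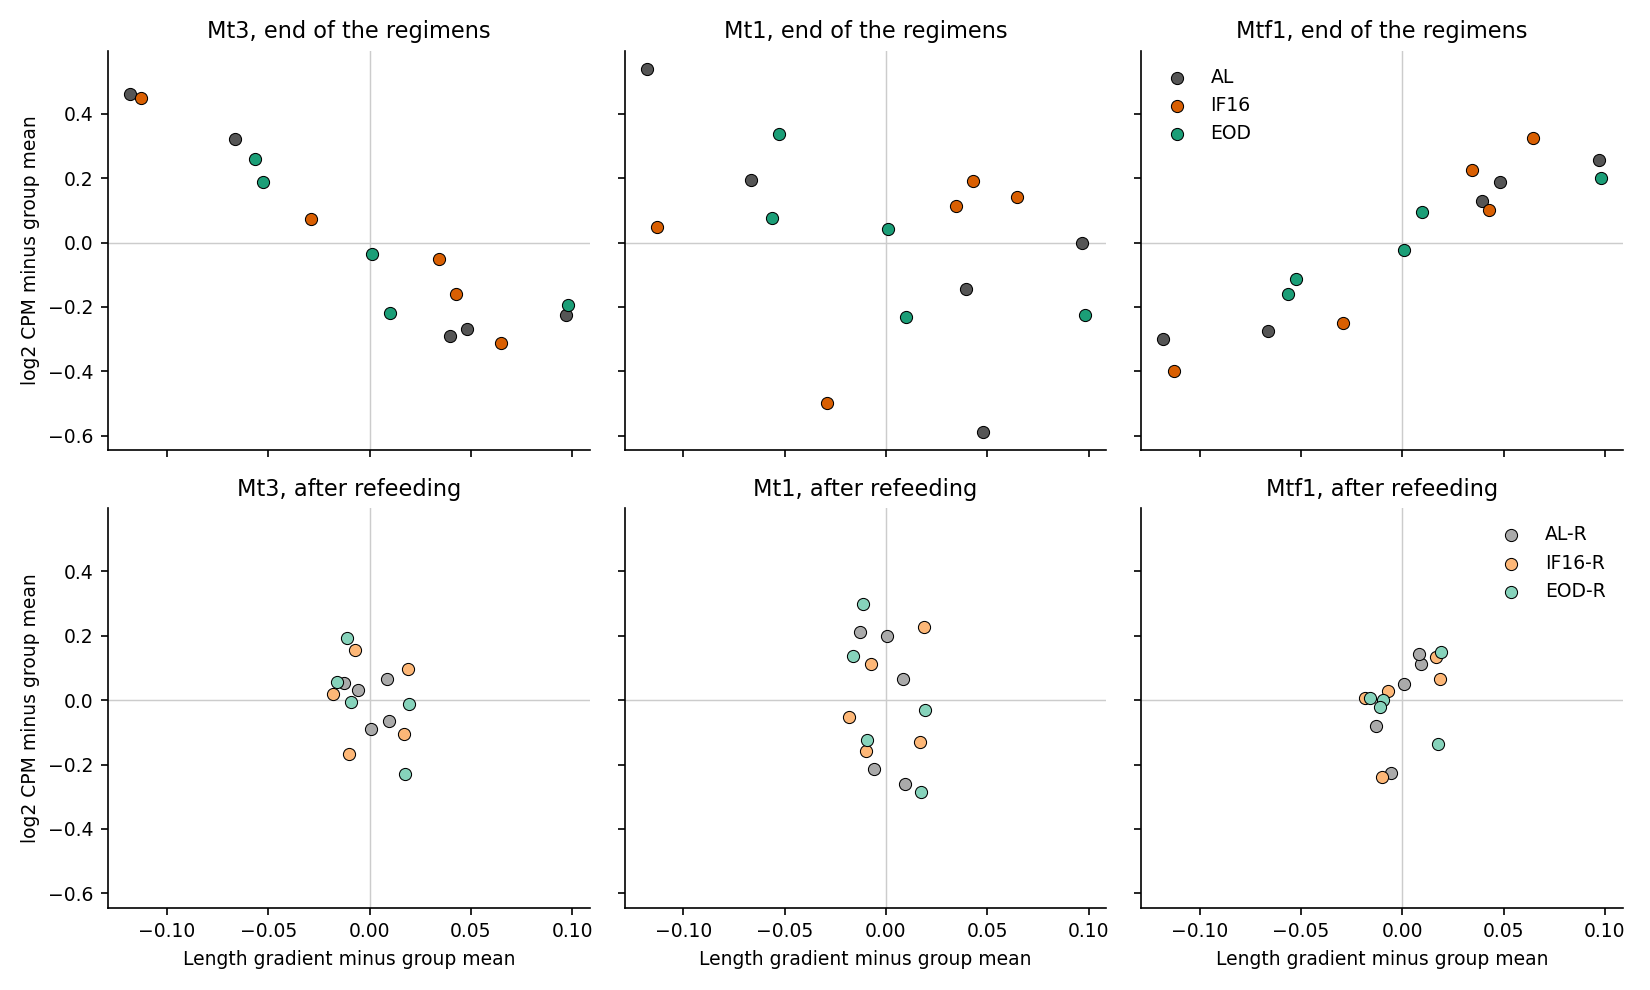
Log2 CPM minus the group mean of Mt3, Mt1 and Mtf1 against the length gradient minus its group mean, in the 15 libraries of each table. At the end of the regimens Mt3 is lower and Mtf1 higher at a higher gradient (r = -0.935 and 0.940), Mt1 scatters (r = -0.437), and after refeeding the gradient spans a narrow range.

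After refeeding, 4 of 21 pairs had an adjusted p of r under 0.05, all positive. Besides Mt1 with Mt2 these were Mt1 with Mt3 (r = 0.702, permutation p = 0.0068, adjusted 0.03; rho = 0.718), Mt2 with Mt3 (r = 0.764, permutation p = 0.0071, adjusted 0.03; rho = 0.746) and Mt3 with Slc30a1 (r = 0.765, permutation p = 0.0073, adjusted 0.03; rho = 0.704). The adjusted permutation p of rho was 0.036, 0.038 and 0.056. Without the 2 libraries farthest from the median they were 0.582, 0.631 and 0.577. The r of Mt3 with Slc30a1 was thus positive after refeeding and negative at the end of the regimens, and the difference was not tested. Pairs of other genes were not counted here either.

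Genes whose pattern was most like a member's were ranked by Pearson r of deviations from the 6 group means over 30 libraries, among 11118 genes with a mean of at least 5 CPM, as a description. For Mt1 they were Mt2 (r = 0.930), Uqcrfs1 (0.849), which encodes a subunit of respiratory complex III, Cnih1 (0.837), Sepp1 (0.831), which encodes selenoprotein P, and Eif4a1 (0.816). For Mt2 they were Mt1, Sdc4 (0.901), a cell surface proteoglycan gene, Ly6c1 (0.890) and Ramp2 (0.885), both known from endothelium, and Adipor2 (0.842), an adiponectin receptor gene. The genes most like Mt3 were Rpl30 (0.937) and Rpl28 (0.925), which encode ribosomal proteins and have processed pseudogenes that could share reads, Myl12b (0.934), Idnk (0.926) and Mrps24 (0.924).

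Slc39a14 was most like Zcchc14 (0.916) and Hipk3 (0.903), and Mtf1 most like Gtf3c4 (0.958) and Jmy (0.955), genes of 7444, 7454, 7127 and 8780 bases. Slc30a1 was most like Ept1 (0.825) and Clcn4-2 (0.822). Slc30a3 was most like Pld3 (0.815) and Ncdn (0.798), but over the refed libraries alone these were 0.273 and 0.304. Most other likenesses were also lower after refeeding than at the end, such as Uqcrfs1 with Mt1 (0.659) and Zcchc14 with Slc39a14 (0.715). Ept1 and Clcn4-2 with Slc30a1 were then at 0.618 and 0.661. Sepp1 with Mt1 (0.857) and Sdc4, Ramp2 and Adipor2 with Mt2 (0.942, 0.935 and 0.936) were higher after refeeding.

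Among the rest of the zinc transporter families no gene was called. Of 22 other genes (exporters Slc30a2 and Slc30a4 to Slc30a10, importers Slc39a1 to Slc39a13, and Mt4), 20 were tested and edgeR called 0 in any of the 8 tests. At an unadjusted p under 0.05 there was 1 higher in IF16 vs AL (against 9.92% of all genes in either direction). There were 1 higher and 1 lower in EOD vs AL (14.4%) and 1 higher in EOD vs IF16 (3.62%). After refeeding there were 2 higher in IF16-R vs AL-R (9.58%), 2 higher in EOD-R vs AL-R (8.5%), and 1 higher and 1 lower in EOD-R vs IF16-R (9.75%). Their median log2 difference was 0.04 in IF16 vs AL and 0.05 in EOD vs AL, beside -0.0062 and -0.02 for all genes tested. In each interaction 1 was lower, against 7.21% of all genes for IF16 and 10.3% for EOD.

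The smallest p among them belonged to a different gene in most comparisons. In IF16 vs AL it was that of Slc39a11, an importer, at 11.7 ± 0.753 CPM in AL and 13.3 ± 1.13 in IF16 (SD; log2 difference 0.18, edgeR adjusted p = 0.478), and in EOD vs AL that of Slc30a2, an exporter with at most 28 counts in an AL library (log2 difference -0.73, SE 0.305, edgeR adjusted p = 0.325). Slc39a12, an importer, had it in both refed comparisons with AL-R, at 43.2 ± 1.47 CPM for AL-R, 46.9 ± 1.82 for IF16-R mice and 47.2 ± 1.68 for EOD-R mice (SD), with log2 differences of 0.12 and 0.13 (edgeR adjusted p = 0.345 and 0.363). In EOD vs IF16 it was Slc39a8 (log2 difference 0.23, edgeR adjusted p = 0.977), in EOD-R vs IF16-R Slc39a3 (-0.12, edgeR adjusted p = 0.333), and in the interactions Slc30a9 for IF16 (-0.15, edgeR adjusted p = 0.616) and Slc30a7 for EOD (-0.28, edgeR adjusted p = 0.473).

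Genes that handle other metals were set beside them. Of 9 copper handling genes, edgeR called 0 in all 8 tests, with at most 2 at an unadjusted p under 0.05 (EOD vs AL, against 14.4% of all genes). Of 9 iron handling genes it called 0 in all 8 tests, also with at most 2. These were in IF16-R vs AL-R and EOD-R vs IF16-R, 1 in each direction in both, against 9.58% and 9.75% of all genes.

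Because glucocorticoids induce Mt1 and Mt2, a list of 12 genes that glucocorticoids are known to induce was set beside them: Fkbp5, Tsc22d3, Sgk1, Per1, Zbtb16, Klf9, Ddit4, Pdk4, Errfi1, Nfkbia, Sult1a1 and Cdkn1a. In IF16 vs AL, all 12 had a positive log2 difference, from 0.32 for Klf9 to 1.72 for Zbtb16, with a median of 0.62, against -0.0062 over all genes tested, of which 48.7% were positive. Per1, a clock gene, rose (110.3 ± 16.0 CPM in AL, 182 ± 25.8 in IF16, SD, n = 5; log2 difference 0.73, SE 0.123, edgeR adjusted p = 0.0451), and 10 of 12 had an unadjusted p under 0.05. In EOD vs AL, all 12 were positive as well, from 0.40 for Klf9 to 1.58 for Zbtb16, with a median of 0.71, against -0.02 over all genes. Per1 rose here too (182 ± 27.9 CPM in EOD, log2 difference 0.72, SE 0.123, edgeR adjusted p = 0.0436), the 1 of 12 called, against 0.0664% of all genes. An unadjusted p under 0.05 was reached by 11 of 12, against 14.4% of all genes.

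After refeeding the same list had a median of 0.05 in IF16-R vs AL-R and 0.0013 in EOD-R vs AL-R. In each, 0 were called and 1 of 12 had an unadjusted p under 0.05, against 9.58% and 8.5% of all genes. In the interactions all 12 were negative for both regimens, with medians of -0.53 and -0.63 and 0 called. An unadjusted p under 0.05 was reached by 6 and 8 of 12, against 7.21% and 10.3% of all genes. Mt1 and Mt2 also had positive values at the end of the regimens and negative interactions. The list was chosen with earlier results of these data known, so its shared sign is a description only. The relation of the list to Mt1 and Mt2 was not tested.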

How the data were processed

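The authors deposited gene counts and FPKM for 30 RNA-seq libraries in 2 tables of 15 libraries, with the refed mice in the second. The submitters' processing notes name mm10, STAR 2.5, HTSeq 0.6.1 and DESeq2 without their roles, and strand handling is not given in the sources used here, so reads of overlapping or antisense genes cannot be told apart. The FPKM that the authors deposited could be rebuilt from counts, gene lengths and total counts (largest relative difference 5e-12 for values of at least 10 counts). Samples were grouped by their labels, and 12 ChIP and input samples were not analysed here.

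Counts were filtered with filterByExpr, scaled by TMM and tested with edgeR 4.0.16 (R 4.3.3, limma 3.58.1) on all 3 groups of a table, or on all 6 groups for the interactions. DESeq2 1.42.0, its size factors, no filter, a replicate block, 3 covariates, fits of only the groups compared, and leaving out each library were alternatives. CPM per library carry no pseudocount, and log2 CPM had a prior count of 2. Correlations used 100000 permutations within groups (Python 3.11.15, numpy 2.4.6, scipy 1.17.1, pandas 2.3.3). Tested on simulated data with 100 genes changed at each size, edgeR recovered 67% of 1.5-fold and 95% of 2-fold changes in IF16 vs AL (16444 genes), and 63% and 86% in the IF16 interaction (16772 genes). It also called 10 and 4 unchanged genes. The simulated libraries held no shared length gradient or choroid plexus differences, and low-count genes were left out of the planted changes. Many planted changes loosen the Benjamini-Hochberg cut, and edgeR called 8 genes in the real IF16 vs AL. These shares are therefore not the power for the members.

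The members and lists were chosen with earlier results of these data known. All members are named, with list genes that were called, the other zinc gene with the smallest p in each comparison, and the 5 genes most like each metallothionein or 2 most like each other member, leaving out pseudogenes and symbols of predicted genes. The glucocorticoid list is also named in full, with its lowest and highest values. Total counts of 26799825 to 36167435 set the counting precision, which is lowest for Slc30a3. A comparison of the metallothionein proteins was not analysed here.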

Additional observations from a re-analysis of the deposited data

Results flagged for a closer look

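Mt1 in IF16 replicate 2, at 324 CPM, lay far below the other 4 libraries of its group (473 to 522 CPM) and was the 1 library that stood apart among the 42 sets of 5 values examined (7 genes in 6 groups). Chance flags about 1 in 20 groups, so 1 flag among 42 is no more than chance gives.

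The difference of IF16 from its controls had the opposite sign at the 2 times for Mt1. Every IF16 library lay above the AL mean and every IF16-R library lay below the AL-R mean. The interaction, -0.99 on the log2 scale, was not called by edgeR (adjusted p = 0.106) and was called by DESeq2 (adjusted p = 0.0120). The length gradient separates IF16-R from AL-R. With it as a covariate the refed difference was -0.14, beside -0.27 without it, and the interaction was -1.03 (edgeR adjusted p = 0.0192).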

How the results depend on the processing

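Of 1134 values of the 7 members under alternatives, 1057 kept their direction and side of the threshold, 24 passed it where the reported fit did not, and 53 changed sign, 1 of these with an unadjusted p under 0.05 (Mt3 in EOD vs AL with the length gradient). The reported fits called 0 members in all 8 tests. DESeq2 called 2 in IF16 vs AL, 2 in EOD vs AL, 1 in EOD-R vs IF16-R and 2 in the IF16 interaction, and the length gradient covariate 2 in IF16 vs AL and 2 in the IF16 interaction, where its calls over all genes went from 8 to 62 and from 8 to 36. With the replicate block, 1 was called in IF16 vs AL, 2 in IF16-R vs AL-R, 1 in EOD-R vs AL-R, 2 in the IF16 interaction and 1 in the EOD interaction, all of them Mt1 or Mt2 (edgeR adjusted p = 0.00803 for Mt2 and 0.0426 for Mt1 in IF16-R vs AL-R, 0.0340 for Mt2 in EOD-R vs AL-R, and 0.000391 for Mt2 and 0.00923 for Mt1 in the IF16 interaction). Over all genes the block called 5, 95, 45, 11 and 10 in these 5 tests, where the fits without it called 8, 28, 7, 8 and 2. With the block, Mt1 in EOD vs IF16 was at 0.0030. Leaving out 1 library gave 0 to 1 in EOD-R vs IF16-R and 0 to 2 in the IF16 interaction. The labels say nothing of what a replicate number shares. Of 15 same-number pairs, 4 at the end (r -0.601 to 0.390) and 10 after refeeding (r -0.0699 to 0.396) correlated above 0.1, and 1 and 8 of 15 libraries correlated best with their own number. Signs changed with the length gradient covariate for Mt3 in IF16 vs AL (0.093), EOD vs AL (0.22), EOD vs IF16 (0.13) and the EOD interaction (-0.092), Mt1 in EOD vs IF16 (0.0399), Slc39a14 in IF16-R vs AL-R (-0.0102), and Mtf1 in IF16 vs AL (-0.0042), EOD vs AL (-0.021), EOD vs IF16 (-0.016), IF16-R vs AL-R (-0.0481), EOD-R vs IF16-R (0.077) and the EOD interaction (0.059). They changed with the astrocyte covariate for Mt3 in EOD vs IF16 (0.0020), Slc30a3 in IF16-R vs AL-R (-0.0799), Slc30a1 in EOD-R vs AL-R (-0.017), and Mtf1 in IF16-R vs AL-R (-0.0477), EOD-R vs AL-R (-0.11) and the IF16 interaction (0.037), and with the choroid plexus covariate for Mt3 in IF16 vs AL (0.000255) and Slc30a1 in EOD vs IF16 (0.015). The cause was not tested. Leaving out 1 library changed the sign within these ranges: Mt1 in EOD vs IF16 -0.12 to 0.037, Mt2 in EOD-R vs IF16-R -0.071 to 0.24, Mt3 in IF16 vs AL -0.19 to 0.068, in EOD vs AL -0.17 to 0.035, in EOD vs IF16 -0.11 to 0.091 and in the IF16 interaction -0.197 to 0.047. For Slc30a1 they were -0.086 to 0.0043 in EOD vs IF16 and -0.045 to 0.0018 in IF16-R vs AL-R, and for Slc30a3 -0.38 to 0.013 in EOD vs AL, -0.0065 to 0.12 in IF16-R vs AL-R, -0.12 to 0.028 in EOD-R vs AL-R and -0.05998 to 0.32 in the EOD interaction. For Slc39a14 the range was -0.14 to 0.00084 in the IF16 interaction, and for Mtf1 -0.0135 to 0.077 in EOD-R vs AL-R and -0.11 to 0.068 in the IF16 interaction.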
